A study of Mus musculus with 2 samples.

Results

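The 7 channel genes described here were followed across the cells of the postnatal day 2 mouse lens epithelium: the connexins Gja1, Gja3, Gja4 and Gja5, and the water channels Mip, Aqp1 and Aqp5. They were taken by gene symbol, and these 7 genes are a small part of the 32285 genes counted. The study peeled the lens capsule with its epithelial monolayer from wild-type C57BL/6N pups, 4 to 8 pups in a pool, after the ciliary body and the vascular tunic had been removed with forceps and trypsin. Both pools were untreated, and each gave 1 droplet-based 3′ single-cell RNA library. No genotype or treatment differed, so that the comparisons were between kinds of cells within each pool, and n = 2 pools throughout.

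Connexins assemble into gap junction channels that pass ions and small metabolites from cell to cell, and the avascular lens relies on them to feed and clear its inner fibers. Aquaporins are membrane pores for water. As an epithelial cell turns into a fiber cell at the lens equator, it leaves the cell cycle, elongates, fills with crystallins and exchanges epithelial membrane proteins for those of the fiber. In blood vessels, other connexins couple endothelial cells to each other and to the mural cells (pericytes and smooth muscle) around them.

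Cells were grouped by marker genes, none of which was one of the 7 channel genes. Of 18494 cells kept, 17397 were lens epithelial cells (LECs), with 10074 in pool 1 and 7323 in pool 2. Resting-like LECs (3699 and 2350 cells), S-phase-like LECs (1308 and 1317), G2/M-like LECs (940 and 799), Early Differentiating-like LECs (1362 and 1006), and Late Differentiating-like LECs (1383 and 1042) were gated, and the 2191 LECs that passed no gate are called other LECs. Endothelial-like cells numbered 327 and 218, and mural-like cells 167 and 215. UMIs (unique molecular identifiers, each standing for 1 captured RNA molecule) were summed over the cells of a group in a pool, and a level is given in CPM, the gene's UMIs per 1000000 UMIs of the group. Gene length does not enter this scale, so levels were compared between groups and not between genes. The files held 12314 barcodes in pool 1 and 9425 in pool 2, with a median of 6307 and 8050 UMIs, and 27 barcode sequences occurred in both. The vascular gates held some lens RNA: crystallins made up 0.40% and 1.10% of the UMIs of endothelial-like cells and 2.67% and 0.63% of those of mural-like cells, and results that rest on these cells are also given for the cells with at most 1% crystallin UMIs. That subset was chosen after the data had been seen. Endothelial and mural markers were all present in their own gates, at 11292 and 11416 CPM for the summed endothelial list and 28349 and 34076 CPM for the summed mural list.

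On the mm10 build, Gja1 is at chr10:56377330-56402513 on the plus strand, Gja3 at chr14:57034460-57058100 on the minus strand and Gja4 at chr4:127311421-127314039 on the minus strand. Gja5 is on chromosome 3, and its gene model overlaps 4 other genes of the opposite strand. Mip is at chr10:128225838-128231812, Aqp1 at chr6:55336432-55348555 and Aqp5 at chr15:99590782-99594829, all on the plus strand. Mip overlaps 1 annotated gene of the opposite strand, which was not in the count tables, and the other 5 overlap none.

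Promoters are shown for 4 members that stand for the main patterns, namely Gja1 and Aqp1, which fell together with differentiation, Mip, which rose with it, and Gja4, which was highest in mural-like cells. RefSeq promoters on GRCm38.p6 (the mm10 assembly) were found for all 7 members, and the 250 bases before the annotated start are printed 5′ to 3′ on the gene's strand. Capitals mark matches on either strand to any of 5 motifs: the TATA box TATAAA, the GC box GGGCGG, the AP-1 site TGANTCA, the Maf half-site TGCTGA and the Sox site CTTTGT. No matches overlapped in these windows.
Gja1, chr10:56377050-56377299: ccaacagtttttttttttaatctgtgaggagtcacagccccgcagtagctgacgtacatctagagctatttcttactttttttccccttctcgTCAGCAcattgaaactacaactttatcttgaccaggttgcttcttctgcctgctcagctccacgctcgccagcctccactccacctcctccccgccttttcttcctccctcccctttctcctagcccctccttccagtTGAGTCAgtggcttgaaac
Aqp1, chr6:55336049-55336298: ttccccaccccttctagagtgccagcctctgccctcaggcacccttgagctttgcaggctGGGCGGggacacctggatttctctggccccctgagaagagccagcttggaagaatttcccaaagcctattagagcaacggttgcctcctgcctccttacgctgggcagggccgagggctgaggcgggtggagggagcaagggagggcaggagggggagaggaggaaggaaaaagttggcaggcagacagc
Mip, chr10:128225560-128225809: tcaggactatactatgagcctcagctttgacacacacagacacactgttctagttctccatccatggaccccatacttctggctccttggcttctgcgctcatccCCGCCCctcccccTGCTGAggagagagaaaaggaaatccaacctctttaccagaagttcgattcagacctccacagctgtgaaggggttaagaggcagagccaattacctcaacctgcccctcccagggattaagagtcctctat
Gja4, chr4:127314040-127314289: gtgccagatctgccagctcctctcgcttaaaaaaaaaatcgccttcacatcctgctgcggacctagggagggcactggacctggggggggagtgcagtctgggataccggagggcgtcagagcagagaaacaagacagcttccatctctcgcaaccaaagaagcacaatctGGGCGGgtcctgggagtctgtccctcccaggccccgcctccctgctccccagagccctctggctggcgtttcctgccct
The Gja1 window held an AP-1 site and a Maf half-site, the Mip window a Maf half-site and a GC box, and the Aqp1 and Gja4 windows a GC box each. Over 32851 promoters of the same length, 6.75% held the AP-1 site, 16.1% the Maf half-site, 32.7% the GC box, 12.4% the TATA box and 16.5% the Sox site. A match is a run of letters and not a measured binding site.

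The epithelial connexin Gja1 and the water channel Aqp1 were highest among LECs in the Resting-like group. Both were low in the Early Differentiating-like group, where Mip was not above its Resting-like level. The Early gate leaves out cells that pass the late marker cut, so these groups alone do not give an order in time. Gja1 encodes a broadly expressed connexin of epithelia, heart and glia. Its level was 171 CPM in pool 1 and 153 CPM in pool 2 in Resting-like LECs, 11.3 and 8.60 CPM in Early Differentiating-like LECs, and 6.37 and 5.85 CPM in Late Differentiating-like LECs. Both pools of every other LEC group were below both pools of the Resting-like group. The fall from Resting-like to Early Differentiating-like LECs was -3.97 ± 0.09 on the log2 scale (SE, edgeR's quasi-likelihood test with Benjamini-Hochberg adjustment, adjusted p = 1.11e-23), and that from Resting-like to Late Differentiating-like LECs was -4.20 ± 0.09 (adjusted p = 6.87e-25). Between the Early and Late groups the difference was -0.23 (95% interval -0.55 to 0.09, adjusted p = 0.227). That last value depended on how the libraries were scaled, and it was -0.41 (adjusted p = 0.0287) with crystallins left out of the totals and -0.71 (adjusted p = 2.69e-04) with all UMIs as totals.

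Aqp1 encodes the water channel of the lens epithelium and of many endothelia and red cells. Its level was 15.7 and 11.0 CPM in Resting-like LECs, 2.19 and 1.68 CPM in Early Differentiating-like LECs, and 0.44 and 0.30 CPM in Late Differentiating-like LECs, the last resting on 7 and 4 UMIs. The groups did not overlap between pools. The change was -2.74 ± 0.20 (log2 ± SE) from Resting-like to Early Differentiating-like LECs (edgeR, adjusted p = 4.01e-12) and a further -1.87 ± 0.45 from Early to Late Differentiating-like LECs (adjusted p = 0.00106). With stricter gates, the second step was -1.20 and missed the threshold (adjusted p = 0.113).

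**Figure D1:**
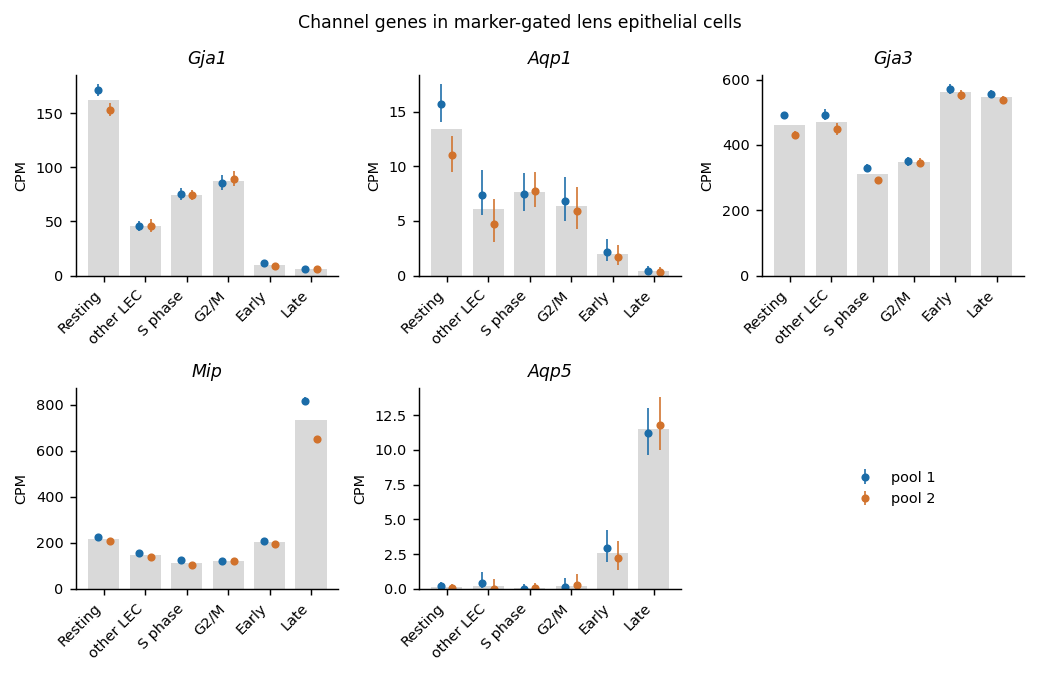
Level of 5 channel genes (y axis, CPM, linear and starting at 0) in 6 groups of LECs (x axis). Bars are means of the 2 pools, points are the pools, and error bars are exact 95% Poisson intervals, which cover counting error only. Gja1 and Aqp1 were highest in Resting-like LECs, Aqp5 and Mip in Late Differentiating-like LECs, at 817.9 and 649.9 CPM for Mip.

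The fiber water channel Mip and the smaller Aqp5 signal were highest in the Late Differentiating-like group, but they parted ways in the Early group. Mip, the major intrinsic protein, is the most abundant membrane protein of fiber cells and serves as a water channel and in adhesion. Its level was 226 and 206 CPM in Resting-like LECs, 208 and 196 CPM in Early Differentiating-like LECs, and 818 and 650 CPM in Late Differentiating-like LECs. The pools of the Resting-like and Early groups overlapped, with a difference of -0.05 on the log2 scale (95% interval -0.17 to 0.08, edgeR, adjusted p = 0.560). From Early to Late Differentiating-like LECs Mip rose by 2.33 ± 0.06 (SE, adjusted p = 2.18e-22), and from Resting-like to Late by 2.29 ± 0.06 (adjusted p = 2.00e-23). The late gate contains crystallin genes, and crystallins made up 28.2% and 25.5% of all UMIs in that group against 7.83% and 7.67% in Resting-like LECs. With all UMIs as totals the rise from Resting-like to Late was 1.76, and with crystallins left out of the totals it was 2.10, with both past the threshold.

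Aqp5 encodes a water channel that can move into the fiber membrane under regulation. It was represented by 4 UMIs and 1 UMI in all Resting-like LECs (0.19 and 0.06 CPM), by 28 and 20 UMIs in Early Differentiating-like LECs (2.92 and 2.23 CPM) and by 180 and 155 UMIs in Late Differentiating-like LECs (11.2 and 11.8 CPM). The groups did not overlap. The ratio of Late to Resting-like levels was 58.9 (exact 95% interval 22.6 to 218.7, counting error only) in pool 1 and 193.9 (34.3 to 7709) in pool 2, and the low count in Resting-like LECs set the width of these intervals. In edgeR, Aqp5 was higher in Early than in Resting-like LECs (log2 difference 4.22 ± 0.47 SE, adjusted p = 2.39e-08) and higher in Late than in Early (2.62 ± 0.20, adjusted p = 8.42e-12).

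Gja3, the connexin that builds gap junctions between fibers, was present in every LEC group and its levels spanned 293 to 571 CPM over them. It was at 492 and 432 CPM in Resting-like LECs, 571 and 552 CPM in Early Differentiating-like LECs and 557 and 538 CPM in Late Differentiating-like LECs. The Early and Late groups overlapped, and both lay above the Resting-like pools. Gja3 was higher in Early than in Resting-like LECs by 0.33 ± 0.04 (log2 ± SE, edgeR, adjusted p = 1.96e-07) and in Late than in Resting-like by 0.77 ± 0.04 (adjusted p = 1.76e-15), or by 0.58 with crystallins left out of the totals and 0.25 with all UMIs as totals. The Early to Late difference had no fixed direction, since it was 0.44 (adjusted p = 1.25e-09) after TMM scaling, 0.26 with crystallins left out and -0.04 (adjusted p = 0.462) with all UMIs as totals.

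Of the 7 members, 5 had enough UMIs in LECs to be tested between LEC groups. Gja4 and Gja5 did not, with 16 and 9 UMIs of Gja4 and 20 and 15 UMIs of Gja5 in all LECs of the pools. Between Late Differentiating-like and Resting-like LECs, 3 members were higher and 2 lower, beside 33.1% of all 13072 genes tested that were higher and 33.5% that were lower (66.5% together), so that being called was common. The median log2 difference of all genes was -0.03 after TMM scaling, -0.22 with crystallins left out of the totals and -0.55 with all UMIs as totals, and relative to those medians the directions of the 5 members were the same. The split of all genes called moved with it, from 4322 higher and 4376 lower to 3046 and 5846 with crystallins left out and to 1583 and 8802 with all UMIs. Between Early Differentiating-like and Resting-like LECs, 2 were higher and 2 lower (background 43.6%, with 21.5% higher and 22.1% lower). From Early to Late, 3 were higher and 1 lower (background 48.5%, with 25.2% higher and 23.3% lower, or 3288 and 3046 genes). There the split of all genes was 1930 and 4742 with crystallins left out and 892 and 8401 with all UMIs as totals.

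**Figure D2:**
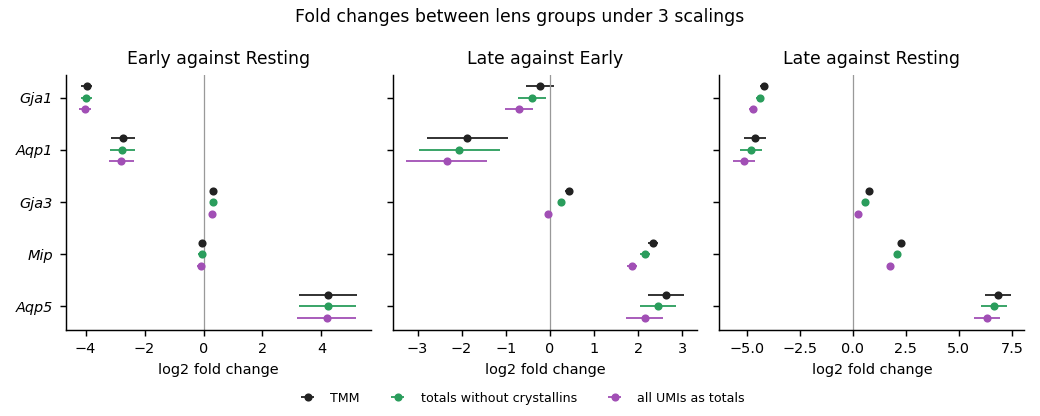
Log2 fold change (x axis) of 5 channel genes (y axis) in 3 comparisons of LEC groups, from edgeR, with 95% intervals. Colors show TMM scaling, totals without crystallins and all UMIs as totals; Gja3 lay on both sides of 0 between Early and Late (0.44 to -0.04), while Gja1 and Aqp1 lay below 0 and Mip and Aqp5 above 0 in the comparison of Late with Resting-like.

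These changes were also followed without gate cuts, along a score from the same late and resting marker lists, so the ranking is not independent of the gates. All LECs were ranked in each pool by a differentiation score, the mean z of the late marker list minus that of the resting list, and cut into 10 bins of equal size. Gja1 fell with each bin from 214 ± 23 CPM (SD, n = 2 pools) in the first to 77.4 ± 6.8 in the fifth, 22.1 ± 4.2 in the eighth and 6.72 ± 2.65 in the ninth. Aqp1 fell from 21.9 ± 3.2 CPM in the first bin to 6.88 ± 1.61 in the fifth and 0.75 ± 0.28 in the ninth. Mip first declined, from 194 ± 32 CPM in the first bin to 139 ± 17 in the seventh, and then reached 296 ± 2 in the ninth and 846 ± 140 in the tenth. Aqp5 was at 0.34 ± 0.02 CPM in the seventh bin, 1.27 ± 0.19 in the eighth, 5.24 ± 1.54 in the ninth and 12.9 ± 1.3 in the tenth. In both pools, Gja1 had come down to 25.03 and 19.1 CPM in the eighth bin, where Mip, at 171.8 and 152.2 CPM, was still below the 216.3 and 170.9 CPM of its first bin. Gja3 was lowest in the fifth bin (386 ± 35 CPM) and highest in the ninth (551 ± 16). The makeup of the bins changed along the score. Resting-like cells made up 80.1% and 69.2% of the first bin and 9.93% and 8.47% of the seventh. The seventh bin held 43.3% and 35.8% other LECs, 18.3% and 23.0% S-phase-like and 11.6% and 15.2% G2/M-like cells. The part of this makeup in the declines of Mip and Gja3 was not tested. Most cells of the ninth bin were Early Differentiating-like (57.8% and 55.9%), and those of the tenth bin were almost all Late Differentiating-like (99.9% and 100%). In pool 1 the median depth ran from 5584 UMIs a cell in the first bin to 12482 in the tenth, and its part in these curves was not tested.

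**Figure D3:**
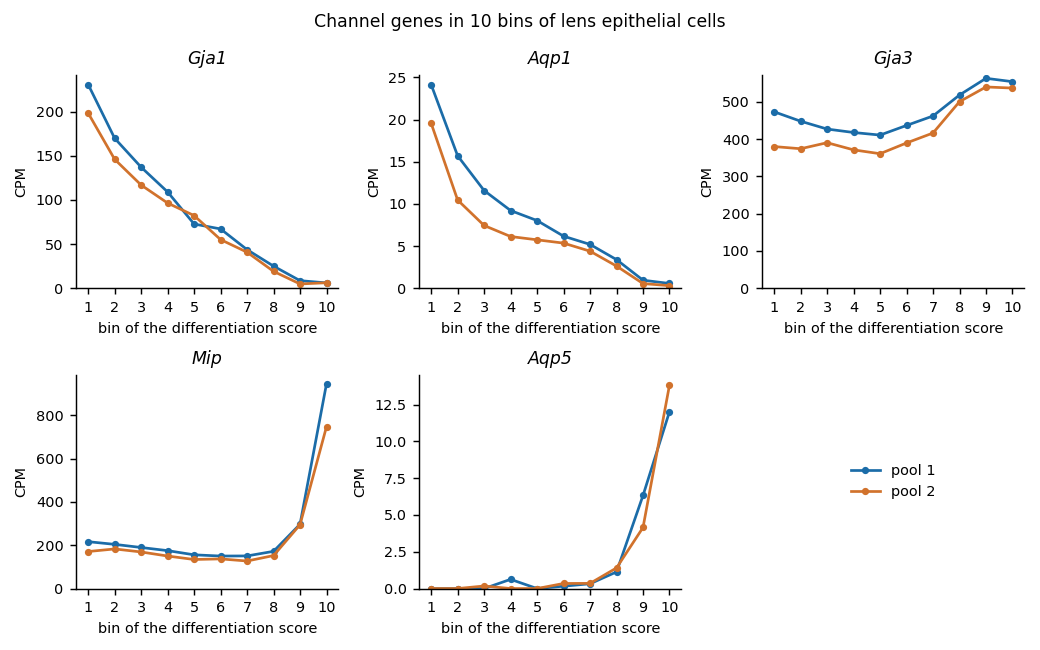
Level of 5 channel genes (y axis, CPM) in 10 equal bins of LECs ranked by differentiation score (x axis, from resting to late), with 1 line for each pool. Gja1 and Aqp1 decline from the first bin on, whereas Mip and Aqp5 climb in the last bins, Mip from 139 ± 17 CPM in the seventh to 846 ± 140 in the tenth (mean ± SD).

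Among the Late Differentiating-like cells themselves, Mip kept rising with the late marker score while Gja3 did not. In 3 bands of that score (597 and 526 cells, 535 and 406 cells, 251 and 110 cells), Mip was at 449 and 399 CPM, then 833 and 716 CPM, then 1495 and 1452 CPM. Gja3 was at 565 and 545, 551 and 536, and 555 and 519 CPM, with the pools of all bands overlapping. Aqp5 was at 9.73 and 7.79 CPM in the low band, 14.2 and 14.5 CPM in the middle band, and 7.45 and 16.9 CPM in the high band, where each pool held 23 UMIs and the pools disagreed. Gja1 was down to 4.21 and 2.94 CPM in the high band. These bands were cut after the data had been seen and are given as a description. A further 166 and 220 late cells lay above the upper limit on genes or UMIs, with medians of 24306 and 23637 UMIs a cell, and they held Mip at 1024 and 874 CPM, Gja3 at 501 and 485 CPM and Aqp5 at 11.98 and 10.2 CPM. Gja1 was at 11.6 and 14.7 CPM (57 and 91 UMIs) in these cells, above both pools of every late band and of the Early group. These cells had no doublet score, and none was removed as a doublet. Their summed resting list stood at 414 and 330 CPM, against 212 and 198 CPM in Late Differentiating-like cells. Their S-phase list stood at 127 and 103 CPM, against 35.8 and 34.4 CPM. The part of doublets in their Gja1 level was not tested. Counted as molecules, Mip averaged 1.35 UMIs per Resting-like cell, 1.58 per Early cell, 8.93 per Late cell and 27.1 per late cell above the limit. The same averages for Gja3 were 2.88, 4.40, 6.60 and 14.2 UMIs a cell, so that its molecules per cell were more numerous in the deeper groups although its CPM differed little.

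**Figure D4:**
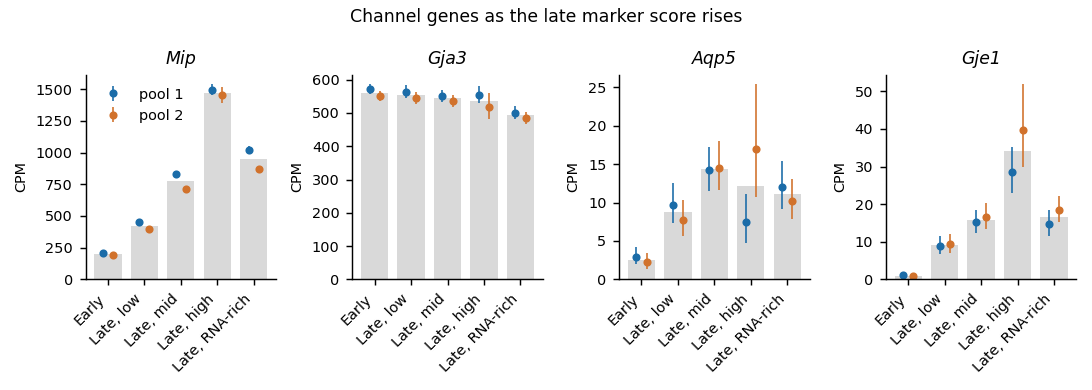
Level (y axis, CPM) of Mip, Gja3, Aqp5 and the connexin Gje1 in Early Differentiating-like LECs, in 3 bands of rising late marker score and in late cells above the UMI limit (x axis). Bars are means of the 2 pools, points are pools and error bars exact 95% Poisson intervals; Mip rises from band to band, to 1495 and 1452 CPM, while Gja3 stays between 519 and 565 CPM over the bands.

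The share of cells with a UMI was compared after each cell had been thinned to 2000 UMIs, since Late Differentiating-like cells were deeper (median 11458 and 12908 UMIs) than Resting-like cells (5478 and 6876). Gja1 was then seen in 26.9% and 25.2% of Resting-like cells and in 1.16% and 1.17% of Late Differentiating-like cells, against 0% and 0.5% of mural-like cells, whose median depth was 3314 and 3459 UMIs. Without thinning, these shares were 54.5% and 57.4%, 7.01% and 6.91%, and 0.60% and 1.40%. Mip was seen in 35.5% and 34.2% of thinned Resting-like cells and in 71.1% and 65.8% of Late Differentiating-like cells, against 1.22% and 3.26% of endothelial-like cells (median depth 3095 and 3276 UMIs, with 245 of 327 and 184 of 218 cells deep enough). Unthinned, Mip was found in 70.1% and 73.6% of Resting-like cells and in 98.2% and 96.3% of Late Differentiating-like cells. Aqp5 was seen in 11.1% and 12.8% of unthinned Late Differentiating-like cells, so most late cells gave no UMI of it at this depth.

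In cycling LECs, 4 of the 5 members tested were lower than in Resting-like LECs. Gja1 was at 75.2 and 74.4 CPM in S-phase-like and 85.4 and 89.5 CPM in G2/M-like LECs, between the Resting-like and Early levels. In S-phase-like LECs 4 members were lower than in Resting-like LECs and 0 higher (edgeR, background 55.1%, with 28.7% lower and 26.3% higher), namely Gja1 by -1.09 (log2), Mip by -0.91, Aqp1 by -0.78 and Gja3 by -0.55. The same 4 were lower in G2/M-like LECs (background 44.7%, with 24.1% lower and 20.6% higher), with -0.95 for Gja1, -0.91 for Mip, -1.13 for Aqp1 and -0.47 for Gja3. Mip was at 124 and 104 CPM in S-phase-like and 121 and 119 CPM in G2/M-like LECs, and Gja3 at 330 and 293 and at 350 and 346 CPM. Aqp5 had at most 2 UMIs in a pool of either group and was not called. The other LECs, low in the resting list but below the other gates, had Gja1 at 45.6 and 46.1 CPM, Mip at 154 and 136 CPM, Gja3 at 493 and 448 CPM and Aqp1 at 7.39 and 4.72 CPM. For Aqp1 the G2/M-like and other LECs overlapped, and for Mip the S-phase-like and G2/M-like groups did.

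The vascular cells divided the channel genes between endothelium and mural cells. Gja4, a connexin known from arterial endothelium, was highest in mural-like cells, at 962 and 830 CPM, was at 152 and 112 CPM in endothelial-like cells and at 0.23 and 0.14 CPM in LECs. No groups overlapped. The summed mural list stood at 32.6 and 31.6 CPM in endothelial-like cells, with 6 of its 10 genes seen in each pool, against 28349 and 34076 CPM in mural-like cells. The endothelial gate leaves out cells with at least 5 mural markers, which keeps this list low there. The part of mural RNA in the endothelial Gja4 level was not tested. The summed endothelial list stood at 498 and 548 CPM in mural-like cells, with 7 and 9 of 10 genes seen, and a fibroblast list at 557 and 635 CPM there, with 3 of 5 genes seen. In mural-like cells Gja4 was detected in 147 of 167 and 181 of 215 cells (88.0% and 84.2%), in endothelial-like cells in 59 of 327 and 45 of 218 (18.0% and 20.6%). Thinned to 2000 UMIs, the shares were 82.2% and 77.5% of mural-like cells and 14.3% and 14.1% of endothelial-like cells, beside 0.07% and 0% of Late Differentiating-like cells. Gja4 was lower in endothelial-like than in mural-like cells by -2.75 ± 0.10 (log2 ± SE, edgeR, adjusted p = 8.56e-19), a mural level that was 6.33-fold (exact 95% interval 5.41 to 7.42) higher in pool 1 and 7.40-fold (6.04 to 9.15) higher in pool 2. Tests against LECs used the equally weighted mean of the gated LEC groups on the log scale, without the other LECs. Levels in LECs given as CPM cover all LECs, so the 2 can differ. Against that mean the difference was 9.26 ± 0.22 in endothelial-like (adjusted p = 8.81e-25) and 12.01 ± 0.14 in mural-like cells (adjusted p = 3.10e-32). Gja4 passed the filter on low counts in this fit only through the vascular sums, where it was high.

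Gja1 and Aqp1 had the reverse arrangement. Gja1 was at 255 and 280 CPM in endothelial-like cells, above the Resting-like LECs, and rested on 1 UMI and 3 UMIs in mural-like cells (1.68 and 3.96 CPM). The endothelial level was 152-fold (exact 95% interval 27.1 to 6009) that of mural-like cells in pool 1 and 70.8-fold (24.0 to 345) in pool 2, and edgeR called Gja1 higher (adjusted p = 2.48e-16). Against the mean of the gated LEC groups, Gja1 was higher in endothelial-like cells by 2.61 ± 0.09 (log2 ± SE, adjusted p = 7.52e-21). That mean gives the low Early and Late groups full weight, and all LECs together held Gja1 at 77.3 and 70.6 CPM. Aqp1 was at 190 and 199 CPM in endothelial-like cells and at 3.36 and 6.60 CPM in mural-like cells (2 and 5 UMIs), with an endothelial level 56.5-fold (15.5 to 469) and 30.1-fold (12.7 to 93.8) that of mural-like cells. Aqp1 was 5.54 ± 0.13 above the same LEC mean in endothelial-like cells (adjusted p = 1.24e-24), and all LECs together held it at 7.54 and 5.75 CPM. In mural-like cells it differed from LECs by 0.34 ± 0.61 (adjusted p = 0.686), and the ratio of LEC to mural levels was 2.24 (0.62 to 18.6) in pool 1 and 0.87 (0.37 to 2.70) in pool 2.

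Gja5, known from arteries and cardiac conduction, was scarce. Mural-like cells held 5 and 7 UMIs of it (8.41 and 9.24 CPM), endothelial-like cells 3 and 4 UMIs (2.04 and 4.08 CPM), and all LECs 20 and 15 UMIs (0.28 and 0.24 CPM). It was called higher than in LECs in both vascular groups (edgeR, log2 difference 3.17 ± 0.86 SE, adjusted p = 0.00223 in endothelial-like cells and 4.81 ± 0.74, adjusted p = 3.28e-06 in mural-like cells). Gja5 was too scarce for a test between LEC groups. It passed the filter on low counts here only through the vascular sums, where it was high. These calls thus add no support to the UMI counts. Between the vascular groups the counting intervals of the ratio spanned 1 in each pool (4.13, 0.80 to 26.6, and 2.27, 0.58 to 10.6), and the test gave -1.64 ± 0.77 for endothelial-like against mural-like cells (adjusted p = 0.115). It passed the threshold in the cells with at most 1% crystallin UMIs (-2.19, adjusted p = 0.0387) and with no upper limit on genes and UMIs (-1.84, adjusted p = 0.0410). The 3 and 3 endothelial-like cells with a Gja5 UMI were all among the 59 and 45 with a Gja4 UMI, and 0 of the 268 and 173 cells without Gja4 held Gja5. So few cells do not define a kind of cell. Both genes were highest in mural-like cells, and the part of depth or mural RNA in this overlap was not tested.

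The lens-type members Gja3 and Mip were lower in vascular cells than in LECs. Gja3 was at 14.3 and 23.5 CPM in endothelial-like and 48.8 and 10.6 CPM in mural-like cells, and Mip at 10.2 and 24.5 CPM and at 85.8 and 10.6 CPM. In each gate, the pool with the larger crystallin share had the higher Gja3 and Mip. As a share of the LEC level, Cryaa, Gja3 and Mip stood at 2.80%, 2.97% and 3.14% in endothelial-like cells of pool 1 and at 12.6%, 5.39% and 9.37% in those of pool 2. In mural-like cells the shares were 24.0%, 10.2% and 26.4% in pool 1 and 4.78%, 2.43% and 4.04% in pool 2. The 3 shares lay close together in endothelial-like cells of pool 1 and less so in the other 3 sums. The part of lens RNA in these levels was not tested. Among vascular cells with at most 1% crystallin UMIs, Gja3 was at 9.90 and 5.55 CPM in endothelial-like cells and at 0 and 5.62 CPM (0 and 4 UMIs) in mural-like cells, and Mip was at 9.19 and 5.55 and at 17.1 and 8.43 CPM. Gja4 there was at 1039 and 847 CPM in mural-like cells and 147 and 113 CPM in endothelial-like cells, and Gja1 at 254 and 297 CPM in endothelial-like cells. Aqp5 had 0 UMIs in 545 endothelial-like and 382 mural-like cells, which with a floor of 3 UMIs over each group made its Late Differentiating-like level at least 9.39-fold and at least 5.17-fold higher.

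Of the 7 members, 4 were higher and 2 lower in endothelial-like cells than in LECs (edgeR, background 57.3% of 13902 genes tested, with 28.3% higher and 29.0% lower), and 2 were higher and 3 lower in mural-like cells (background 46.6%, with 22.8% and 23.8%). Gja4 and Gja5 were among the higher in both groups, and they passed the filter on low counts only through the vascular sums. With all UMIs as totals the split of all genes moved from 3936 higher and 4026 lower to 4873 and 3017 for endothelial-like cells, and from 3172 and 3305 to 3820 and 2243 for mural-like cells, as the median of all genes moved from -0.09 to 0.15 and from -0.17 to 0.08. Between endothelial-like and mural-like cells 2 were higher and 2 lower (background 30.6%, with 15.7% and 14.9%). The lower pair were Gja4 and Mip, and Mip (-1.48, adjusted p = 0.0305) was no longer called among cells with at most 1% crystallin UMIs (-0.67, adjusted p = 0.448), in DESeq2 (adjusted p = 0.191), or without doublet removal (-0.28, adjusted p = 0.413), and its pools disagreed in direction (-2.96 in pool 1 and 1.14 in pool 2, on the log2(CPM + 1) scale). Without doublet removal the vascular differences from LECs shrank, from -4.85 to -2.28 for Gja3 and from -4.01 to -1.97 for Mip in endothelial-like cells, and from -3.87 to -1.98 for Gja1 in mural-like cells. They shrank likewise with no upper limit on genes and UMIs (to -3.19, -2.46 and -1.62).

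**Figure D5:**
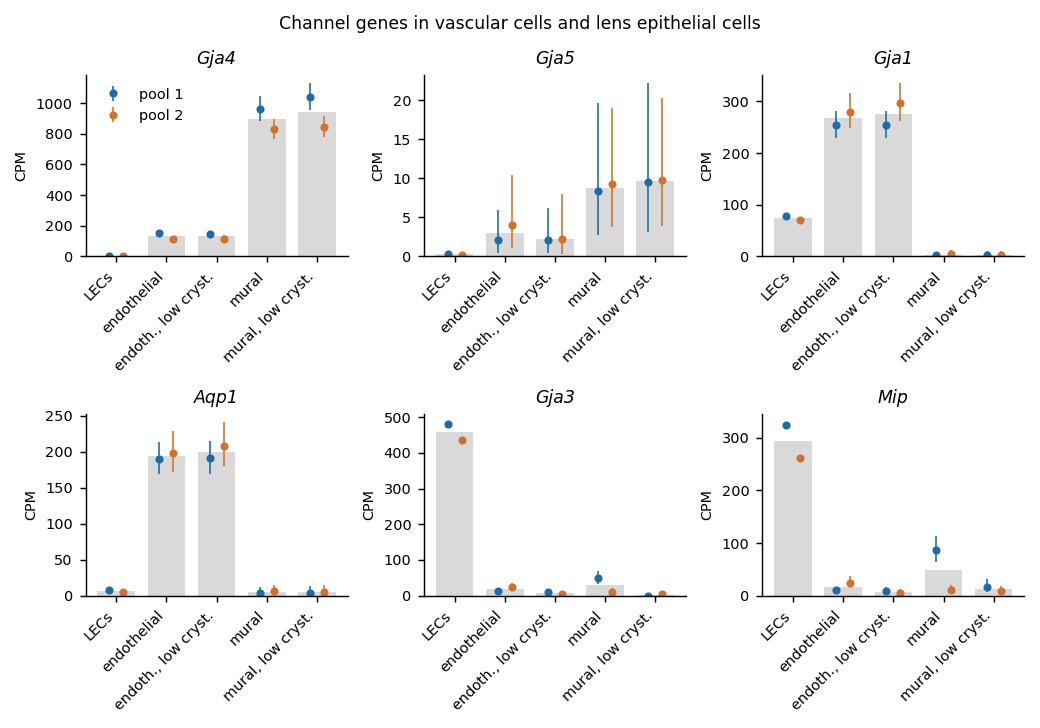
Level (y axis, CPM) of 6 channel genes in LECs, endothelial-like cells and mural-like cells, with the vascular cells of at most 1% crystallin UMIs (low cryst.) beside them. Bars are means of the 2 pools, points are pools and error bars exact 95% Poisson intervals; Gja4 is highest in mural-like cells (962 and 830 CPM), Gja1 and Aqp1 in endothelial-like cells (255 and 280, 190 and 199 CPM), and Gja3 and Mip in LECs.

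Endothelial-like cells were also divided by whether they held at least 1 UMI of 8 arterial markers (261 and 188 cells) or none (66 and 30 cells). The summed arterial list stood at 755 and 763 CPM in endothelial-like cells. Lens cells held it too, at 163 and 162 CPM in Resting-like and 219 and 213 CPM in Early Differentiating-like LECs. A single UMI of it is thus a weak mark of an arterial cell. Gja4 was at 171 and 119 CPM in the first and at 21.4 and 45.7 CPM in the second, which rested on 4 UMIs in each pool. In pool 2 all 4 UMIs came from 1 cell. The ratio was 7.98 (exact 95% interval 3.07 to 29.55, counting error only) in pool 1. In pool 2 it was 2.595 (0.98 to 9.7), an interval that spanned 1. Aqp1 was at 207 and 209 CPM against 75 and 91.5 CPM (14 and 8 UMIs). Both were called higher in cells with arterial markers (edgeR, background 0.155%, 2.32 ± 0.37, adjusted p = 0.00123, and 1.35 ± 0.28, adjusted p = 0.0352, log2 ± SE), 2 members higher and 0 lower where 0.119% of 8391 genes were higher and 0.0358% lower. DESeq2 called neither (adjusted p = 0.183 for Gja4), and Aqp1 also missed the threshold without the pool term (adjusted p = 0.173) and with no upper limit on genes and UMIs (adjusted p = 0.433). Gja1 was at 263 and 292 CPM against 204 and 160 CPM, with no call (0.53, adjusted p = 0.895). The cells without an arterial UMI were shallower (on average 2828 and 2916 UMIs a cell, against 4929 and 4751), and those of pool 2 held 4.03% crystallin UMIs. The part of depth in these differences was not tested. The fit also held the sums of mural-like cells.

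Among the other connexins and pannexins, Gje1 was highest in Late Differentiating-like LECs and Gjc1 in mural-like cells. Of 18 genes of that list, 5 had enough UMIs for a test in LECs, with 1 higher and 3 lower in Late Differentiating-like than in Resting-like LECs (median log2 difference -1.01). Gje1, an atypical lens connexin, was at 0.24 and 0.18 CPM in Resting-like LECs and 15.4 and 15.7 CPM in Late Differentiating-like LECs (6.64 ± 0.26, adjusted p = 7.61e-19, or 4.46 ± 0.24 above Early; 1 gene of the opposite strand overlaps it), and it reached 28.5 and 39.7 CPM in the highest late band. Gjc1, a connexin of vascular smooth muscle and pericytes, was at 594 and 675 CPM in mural-like cells, 75.4 and 61.2 CPM in endothelial-like cells and 34.3 and 35.9 CPM in LECs (mural-like against LECs 4.26 ± 0.08, adjusted p = 8.12e-27; endothelial-like against LECs 1.07 ± 0.13, adjusted p = 5.50e-08). In LECs Gjc1 was higher in S-phase-like (85.2 and 78.4 CPM, 1.44 ± 0.07, adjusted p = 4.49e-17) and G2/M-like cells (53.6 and 50.4 CPM, 0.71 ± 0.08, adjusted p = 1.01e-08) than in Resting-like cells (31.1 and 30.0 CPM), and lower in Early (-0.52) and Late Differentiating-like cells (-1.75). It thus moved opposite to Gja1 in the cycling groups and with it in the differentiating ones. In the list 2 genes were higher and 1 lower in Early than in Resting-like LECs, 1 higher and 3 lower in Late than in Early, 2 higher and 0 lower in S-phase-like and 1 higher and 1 lower in G2/M-like LECs. Against LECs, 1 was higher and 0 lower in endothelial-like and in mural-like cells, and 0 were higher and 1 lower in endothelial-like than in mural-like cells. The shares of all genes called in these comparisons were those given for the members.

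Of 9 other aquaporins, 3 were tested, and all 3 were higher in Early and in Late Differentiating-like than in Resting-like LECs (median log2 difference 1.87 and 1.25), beside 21.5% and 33.1% of all genes that were higher. Aqp4, the water channel best known from astrocytes, whose gene model overlaps 1 gene of the opposite strand, was at 10.1 and 9.71 CPM in Resting-like LECs, 34.4 and 35.4 CPM in Early Differentiating-like LECs (1.87 ± 0.10, adjusted p = 4.70e-15) and 13.7 and 12.2 CPM in Late Differentiating-like LECs (0.93 ± 0.11 above Resting-like, adjusted p = 3.99e-08). It was lower in Late than in Early (-0.94), the opposite of Aqp5 and Mip, and it was also higher in G2/M-like (22.2 and 22.8 CPM, 1.12) and S-phase-like LECs (13.1 and 14.1 CPM, 0.49) than in Resting-like LECs. No UMI of it was seen in vascular cells, which put its LEC level at least 14.6-fold above that of endothelial-like and 8.07-fold above that of mural-like cells with a floor of 3 UMIs over each group. Aqp11, an intracellular aquaporin, was at 43.4 and 46.9 CPM in endothelial-like cells against 2.67 and 2.68 CPM in LECs (3.78 ± 0.23, adjusted p = 1.34e-14) and had 0 UMIs and 1 UMI in mural-like cells.

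Partners and regulators of these channels were read from another list, with 17 of its 19 genes tested in LECs. In Late Differentiating-like against Resting-like LECs 9 were higher and 5 lower (median log2 difference 0.15, beside -0.03 for all genes). The adherens junction gene Cdh1 fell by 2.32 on the log2 scale, from 123 and 149 CPM to 16.2 and 21.7 CPM, while Cdh2, the cadherin of fibers, was higher by 0.77 after TMM scaling. The tight and gap junction scaffold Tjp1 was higher by 1.21, and Ezr, a membrane-cytoskeleton linker, by 0.82. Rdx, a relative of Ezr, was higher by 0.20, the ubiquitin ligase Nedd4 by 0.15 and the adaptor Ywhae by 0.30, while the kinase subunit Prkacb fell by 0.28 and the chloride cotransporter Slc12a2 by 0.26. In Early against Resting-like LECs 6 were higher and 3 lower, in Late against Early 6 and 2, in S-phase-like 9 and 3, and in G2/M-like LECs 8 and 3. Beside these counts, 43.6%, 48.5%, 55.1% and 44.7% of all genes were called in either direction, and 66.5% in Late against Resting-like LECs, so that being called was common among all genes too. DESeq2 called 7, 7, 9 and 10 of the 17 partners in these 4 comparisons and 11 in Late against Resting-like LECs. Of all 13072 genes tested it called 3321, 4110, 4219 and 3533, and 6431 in Late against Resting-like LECs. Cdh1 was already lower in Early than in Resting-like LECs (-0.71). Differences of these partners below 0.55 are smaller than the shift of the median of all genes between scalings. All 19 were tested in vascular cells, with 9 higher and 8 lower in endothelial-like and 9 higher and 7 lower in mural-like cells than in LECs, and 9 higher and 6 lower in endothelial-like than in mural-like cells (57.3%, 46.6% and 30.6% of all genes were called). DESeq2 called 16, 16 and 14 of them, beside 7772, 6240 and 3903 of all 13902 genes tested. Cav1 and Cav2, the caveolins, were at 145 and 151 CPM and at 95.7 and 127 CPM in endothelial-like cells, with at most 0.36 CPM in LECs (9.75 ± 0.21 and 8.52 ± 0.24). In mural-like cells Slc12a2 was at 326 and 413 CPM (3.68 ± 0.10 above LECs) and the kinase gene Prkca at 23.6 and 22.4 CPM (2.83 ± 0.39). The cytoskeletal linker Msn was higher in both vascular groups (4.29 ± 0.06 and 3.01 ± 0.10), as was Tjp1 (1.81 ± 0.08 and 1.84 ± 0.10), and Ezr (-3.76 ± 0.10 and -3.94 ± 0.13) and Cdh1 (-4.37 ± 0.25 and -3.70 ± 0.29) were lower in both. In endothelial-like cells with against without arterial markers, 0 of 17 partners, 0 of 1 connexin and 0 of 1 aquaporin tested were called by edgeR, with 1, 0 and 1 at an unadjusted p under 0.05 (Tjp1 and Aqp11), and DESeq2 called 0 in each list.

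For each member the genes outside the channel families and marker lists with the most similar pattern were sought over 14 sums, 5 LEC groups, endothelial-like and mural-like cells in both pools, among 8676 genes, by Pearson's r of log2(CPM + 5). These are descriptions, since the sums share libraries and depths. Closest to Gja1 were Foxo1 (r = 0.974), Cd59a (0.962) and Tsc22d1 (0.950). Closest to Gja3 were Ezr (0.989), Mgarp (0.988) and Bcl2l13 (0.988). Gja4 was closest to Rgs7bp, Arhgdib and Mndal (0.998 to 1.000) and Gja5 to Spry4, 9930111J21Rik2 and C1qtnf1 (0.992 to 0.994). Gja5 held at most 7 UMIs in any of the 14 sums and was highest in mural-like cells, so its likeness rests on few counts. Mip was closest to Pcp4 (0.990), Capn3 (0.973) and Slc16a12 (0.967), Aqp1 to Slc40a1 (0.988), Kbtbd11 (0.987) and Pim3 (0.986), and Aqp5 to Hspb3 (0.982), Cela1 (0.977) and 1300017J02Rik (0.976).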

How the data were processed

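The authors aligned the reads of each library to mm10 with Cell Ranger 6.1.1 (per the file headers) and deposited whole-number UMI counts per gene and barcode, 1 matrix for each of the 2 pools. The values were whole numbers with unequal totals in the pools. From them, barcodes between the 2nd and 97th percentiles of genes (446 to 4261) and UMIs (949 to 20198), with at most 15% mitochondrial UMIs, were kept, and the 8% with the highest Scrublet doublet score in each pool (scanpy 1.11.5) were removed. Vascular cells held at least 5 of 10 markers of their type, and LECs at most 2. LEC gates were at least 15 CP10K (UMIs of the list per 10000 of the cell) of the S or G2/M list, at least 20 CP10K of the early list, a mean z of at least 0.7 for the late list and above 0 for the resting list. Cells past a cycle cut entered no other LEC gate. Early cells were also below the late cut, and Resting-like cells below the early and late cuts. Between 3.18% and 19.4% of LECs lay near a gate, the most for the resting list. A further 90 cells passed no rule for a type and were not analysed here. UMIs were summed by pool and group and tested with edgeR 4.0.16 (R 4.3.3), quasi-likelihood, TMM, filterByExpr, with the pool as a block, and Benjamini-Hochberg adjustment over all genes tested at 0.05. Groups of 1 pool come from the same pups and the same library, which is where the pairing by replicate number comes from. Pools are separate pups, so n = 2. Intervals and floors (3 UMIs) cover counting error only. The tests were also run on simulated counts in which a small set of genes was changed, equally up and down. Far more genes differed between the real groups, so that run cannot bear on the choice of scaling. Gene positions are from GENCODE vM21. DESeq2 1.42.0 and other settings were tried as alternatives. Named genes were every member, the counts of 3 gene lists in each comparison with the values of those called at 10 CPM or more (for the partner list, mainly Late against Resting-like LECs and vascular cells against LECs), and the 3 most similar genes per member. The members and lists were chosen with earlier results of these data known. 1 listed partner had no matching symbol. Connexins outside the members and this list were not analysed here. Some partner genes that are counted in their list are not reported here by name.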

Additional observations from a re-analysis of the deposited data

How the results depend on the processing

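The tests of members kept their direction and side of the threshold in 48 of 51 under DESeq2, 51 of 51 with no filter on low counts, 49 of 51 with no replicate block, 49 of 51 with all UMIs as totals, 48 of 51 with no upper limit on genes and UMIs, 23 of 25 vascular tests in cells with few crystallin UMIs, and 50 of 51 each with crystallins left out of the totals, with no doublet removal and with stricter gates. With all UMIs as totals and no TMM, chosen after seeing the data, Gja3 turned to -0.035 between Early and Late Differentiating-like LECs, and within single pools it was -0.035 and -0.036; the direction of that difference rests on the scaling. Mip in endothelial-like against mural-like cells was 1.14 without replicate 1 and -2.96 without replicate 2, and the cause was not tested. Without the pool block, the endothelial-like cells with against without arterial markers gave 7 genes called and 1 member called; the blocked test gave 13 and 2. There DESeq2 called 5 genes and 0 members, no filter 33 genes, both scalings without TMM 29 genes, and no upper limit 1 member. The block changed 1 further call, that of Mip between endothelial-like and mural-like cells (adjusted p = 0.0686 without it). DESeq2 called fewer genes in Early against Resting-like (3321, edgeR 5693), Late against Early (4110, edgeR 6334), S-phase-like (4219, edgeR 7198) and G2/M-like against Resting-like LECs (3533, edgeR 5841). With 2 pools, the leave-one-out values have no test. Counts were 7 UMIs or fewer in each pool for Gja5 in vascular cells, Aqp5 in Resting-like LECs, and Gja1 and Aqp1 in mural-like cells, so counting error is large for these values.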

Other observations

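Small gates outside the comparisons held the following levels. Macrophage-like cells (29 and 27 cells) had Gja3 at 140 and 33.1 CPM, Gja1 at 39.9 and 16.6 CPM and Mip at 46.5 and 0 CPM, with crystallins at 3.30% and 1.08% of UMIs, and no UMI of Gja4, Gja5, Aqp1 or Aqp5. In the 19 and 22 of them with at most 1% crystallin UMIs, the members gave 2 UMIs in all, both of Gja1 in pool 2. Erythroid-like barcodes (16 and 8), whose crystallin share was 7.06% and 6.59%, near that of Resting-like LECs, had Gja3 at 489 and 476 CPM, Mip at 224 and 139 CPM and Gja1 at 81.6 and 128 CPM, and no UMI of Aqp1, a water channel of red cells. Pax6 stood at 95.3% and 132% of its LEC level in these barcodes, so they held much lens RNA and are named for their erythroid markers alone. The absence of Aqp1 therefore says little about red cells. A total of 24 barcodes is few: 0 UMIs of Aqp1 allow up to 37.6 and 42.8 CPM in the pools (exact 95% upper limits).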
